A study of Mus musculus with 4 samples.

Results

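The genes described here are 39 interferon-stimulated genes, a fixed list of transcription factors, nucleic acid sensors, antiviral effectors, ubiquitin and ADP-ribose enzymes and GTPases that cells switch on in response to interferon. They were picked by symbol and not by a threshold on their measured values, and 39 of 39 were found among the 39017 genes of the count table. The data are RNA-seq counts per gene from 4 lung tumours of KP mice, a model of lung adenocarcinoma started by Cre, which among other changes removes both copies of p53 (Fl/Fl). All 4 samples belong to the Control group: they came from male C57BL/6 mice labelled heterozygous for a floxed allele (fl/wt) whose gene the sample label does not name, and the study's controls were wild type or carried 1 floxed copy of the glucose transporter gene Slc2a1. Each mouse received 1500 viral units of a lentivirus that drives Cre from the broadly active PGK promoter, delivered into the airways, and lung tumours were cut out by eye after 22 weeks and 5 days, dissociated to single cells and lysed without sorting. Macrodissected tissue of this kind holds stromal and immune cells of the host beside tumour cells, and the labels do not say whether a library is 1 tumour or several. With 1 group there is no contrast between treatments, so the measurements are the level of each gene and its spread over the 4 tumours.

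Interferons are secreted proteins that bind receptors at the cell surface. Type I and type III interferons lead through the kinases Jak1 and Tyk2 to a complex that includes Stat2 and Irf9 and binds the interferon-stimulated response element, whereas interferon-gamma leads through Jak1 and Jak2 to factors that bind the gamma-activated site. In the lung these genes restrict viruses and intracellular microbes, and many are also transcribed at a low basal level in unstimulated epithelial and immune cells.

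Read depth was similar across the libraries, at 8151613 to 8799007 counts, so that 3 counts correspond to 0.330 to 0.370 CPM (counts scaled to 1000000 per library, with trimmed-mean effective library sizes). Levels of the marker lists differed between tumours. The 6 alveolar type 2 markers summed to 31082 CPM in tumour 1 and to 50731 to 57870.4 CPM in the others. By contrast the sum of the 4 epithelial markers was highest in tumour 1, at 3972 CPM against 2488 to 2632 CPM. Of these 4 genes, 3 were highest in tumour 1 and 1 was lowest there. In tumour 3 the 4 pan-leukocyte markers summed to 252 CPM against 104 to 144 CPM, the 5 macrophage markers to 248 CPM against 148 to 169 CPM, and the 7 T cell markers to 21.6 CPM against 3.19 to 4.99 CPM. Of the 5 macrophage markers, 4 were highest in tumour 3 and 1 was lowest there. Of 5 markers of plasmacytoid dendritic cells, which are strong interferon producers, Siglech, Pacsin1 and Klk1 had at most 3 counts in every tumour, as had Ncr1 and Prf1 of the 5 NK cell markers. Of the remaining plasmacytoid markers, Ccr9 and Cox6a2, 1 reached a mean of 1 CPM and was lowest in tumour 1 and highest in tumour 4. The plasmacytoid list summed to 2.20, 4.30, 5.31 and 4.88 CPM in tumours 1 to 4. The NK cell list summed to 0.220, 1.05, 1.85 and 0.833 CPM. In a bulk sample, fewer cells of one type and less RNA per cell cannot be told apart.

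Interferon-stimulated genes were transcribed in all 4 tumours, and 38 of the 39 had at least 4 counts in every tumour. Summed over the 39 genes they made up 815.6, 920.3, 888 and 956 CPM in tumours 1, 2, 3 and 4 (mean 895 ± 59.8, SD, n = 4), a 1.17-fold range. As a share of all counts tumour 1 gave 0.0842% (Wilson interval at 95%, 0.0823 to 0.0862), tumour 2 gave 0.0902% (0.0882 to 0.0922), tumour 3 gave 0.0882% (0.0862 to 0.0903) and tumour 4 gave 0.0950% (0.0930 to 0.0971). The upper bound of tumour 1 lay just below the lower bound of tumour 3, the nearest, although such intervals cover counting error only. Mean levels were at least 10 CPM for 23 genes, 1 to 10 CPM for 15 and below 1 CPM for 1, Oas3. The median of the 39 means was 14.2 CPM, against 27.4 CPM over the 14225 genes with a mean of at least 1 CPM, a set that Oas3 does not enter (CPM is not divided by gene length).

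**Figure D1:**
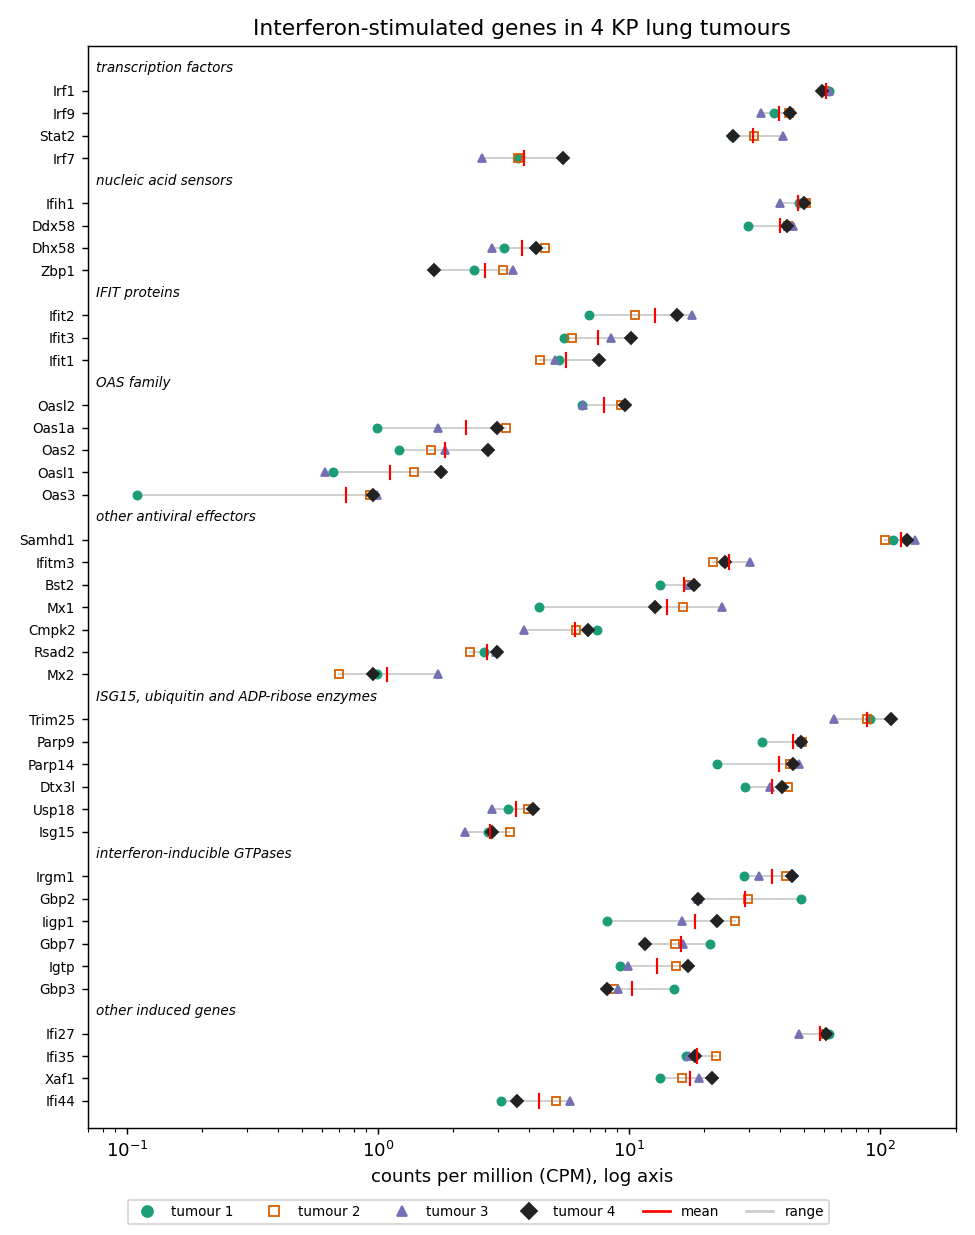
Level of each of the 39 genes in CPM (log axis), grouped by role, with 1 symbol per tumour, the mean as a red bar and the range as a grey line. Samhd1 is the highest at 121 CPM and Oas3 the lowest at 0.745 CPM. Tumour 1 lies at the left end for many genes but at the right end for Gbp2, Gbp3, Gbp7, Cmpk2 and Ifi27.

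To ask which genes differed between tumours, the 4 counts of each gene were compared with the spread that counting alone gives (chi-square with 3 degrees of freedom, Benjamini-Hochberg over the 14225 genes). Of the 38 members tested, 27 (71.1%) passed at an adjusted p below 0.05, where 76.7% of all genes did, so that this share is near the background. The highest tumour exceeded the lowest at least 2-fold for 11 of 38 members (28.9%), against 28.1% of all genes, and the median SD of log2 CPM was 0.32 for members and 0.29 for all genes. Among genes with a mean of at least 10 CPM, 20 of 23 members (87.0%) passed against 85.3% of genes. Without tumour 1, 18 of 38 members passed against 62.3% of genes, and without tumour 3, 19 of 37 against 62.4%. When the spread that edgeR fits as typical for genes of the same level was added to the counting error, 0 of 38 members passed after adjustment and 1 at an unadjusted p below 0.05, where 2.60% of genes passed after adjustment and 7.0% unadjusted. The labels do not say that the 4 samples came from separate animals, so these p values measure only the spread between these samples, part of which may be technical.

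**Figure D2:**
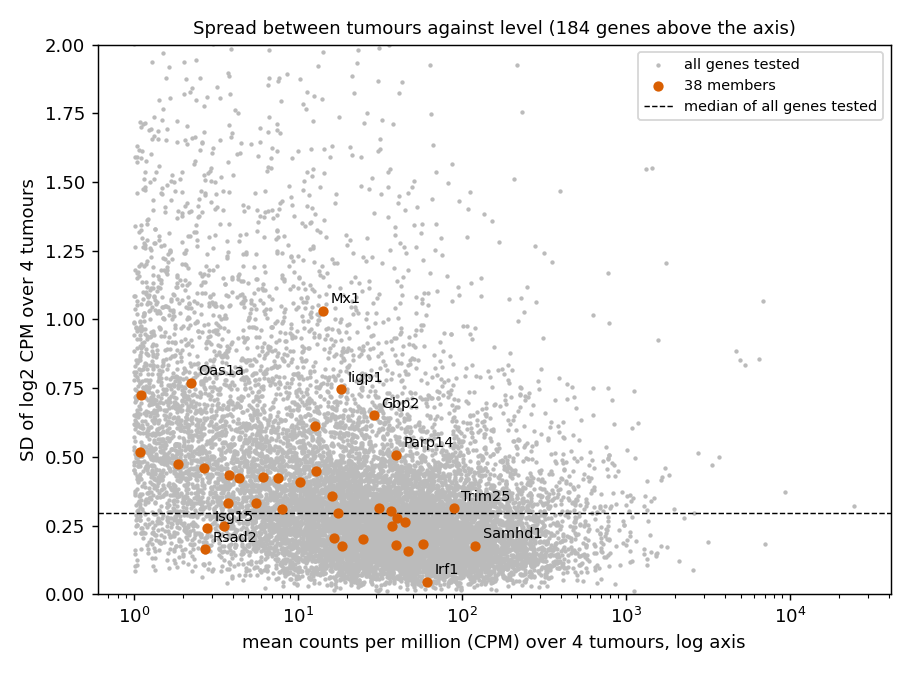
SD of log2 CPM over the 4 tumours against mean level (CPM, log axis) for the 14225 genes tested (grey) and 38 members (orange); the dashed line is the median of all genes, 0.29, and 184 genes lie above the top of the axis. Members lie within the cloud of genes of similar level, with Mx1 at 1.03 and Irf1 at 0.05.

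The order of the tumours was not shared by all genes. Of 38 members, 18 (47.4%) were lowest in tumour 1, where 30.4% of all genes were, and 14 (36.8%) were highest in tumour 4, against 18.0%. Without tumour 2, 3 or 4, 21 of 38, 24 of 37 and 19 of 37 members were lowest in tumour 1, against 37.1%, 37.5% and 35.7% of genes. The other lowest values fell in tumour 2 for 5 members (19.4% of all genes), in tumour 3 for 11 (32.5%) and in tumour 4 for 4 (17.7%), and the other highest values in tumour 1 for 5 (31.4%), in tumour 2 for 8 (20.4%) and in tumour 3 for 11 (30.2%). Median differences from the gene mean were -0.17, 0.12, -0.03 and 0.14 on the log2 scale in tumours 1 to 4, whereas those over all genes lay between -0.01 and 0.01. The median in tumour 2 was 0.06 without tumour 3 and 0.07 without tumour 1, and that in tumour 4 was 0.08 without tumour 1. The 38 members showed 18 different orders of the 4 tumours, and the most frequent order was shared by 4 of them. Summed alveolar type 2 and pan-leukocyte markers were also lowest in tumour 1, with 4 of 6 and 3 of 4 genes lowest there. So were the sums of the macrophage, endothelial, T cell, B and plasma cell, NK cell and both dendritic cell lists. Of the 3 T cell markers tested, 0 were lowest there. The epithelial and fibroblast sums were highest in tumour 1, and the neutrophil sum was lowest in tumour 4. The part of these marker lists in the members' values was not tested.

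**Figure D3:**
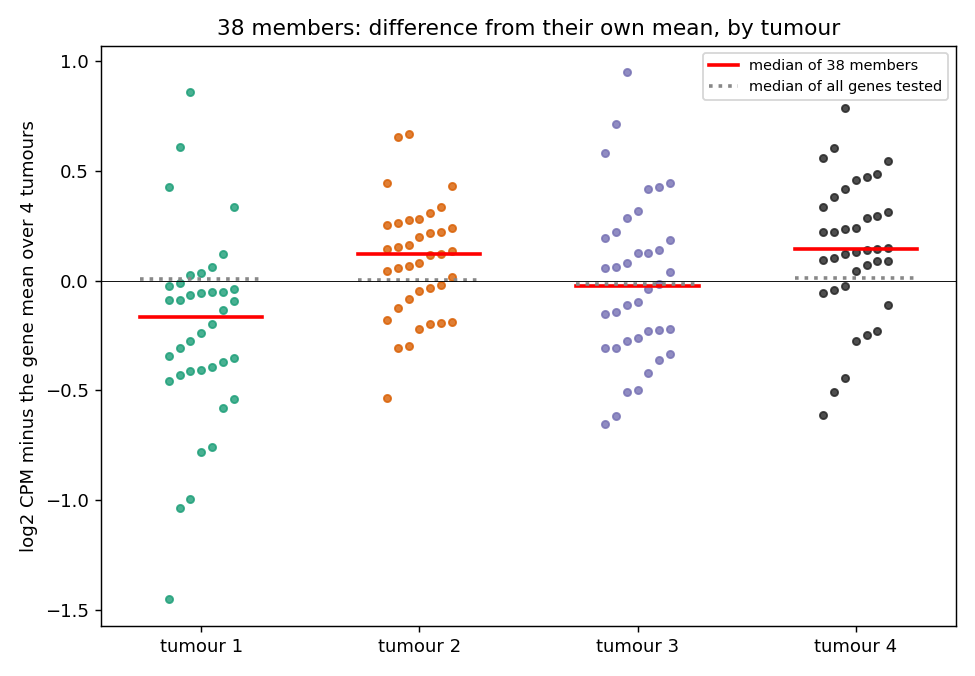
Log2 CPM minus the gene's own mean over the 4 tumours for the 38 members tested, 1 point per gene; red bars are the medians over members and dotted grey bars those over all genes tested. The median is -0.17 in tumour 1 and 0.14 in tumour 4, and in each tumour points lie on both sides of 0.

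RefSeq promoter windows, from 250 bases before to 50 bases after a gene start (GRCm38.p6), were at hand for 29 of the 39 genes and show the elements that interferon signalling uses. The core of the interferon-stimulated response element, the letters GAAA repeated after any 2 bases, on either strand, occurred in 16 of the 29 genes (55.2%), against 3.99% of all 27025 genes with a window (3.44% of 32851 windows). The gamma-activated site TTCNNNGAA, which reads the same on both strands, occurred in 9 of 29 (31.0%) against 9.55% of genes, and 5 genes held both. A second form of the response element, ANNGAAACT, which can overlap the first, was present in 20 of the 29 against 5.65% of genes. Among the GTPases with a window, Gbp2, Gbp3, Gbp7, Igtp and Irgm1 all held the response element core. The stretches below show it for genes of the groups that the values below turn on, with every copy of the element inside the stretch in capitals, overlapping copies running together; where it lies on the other strand it reads TTTC repeated after any 2 bases. The first base in capitals lies 104 bases before the start for Ifit1, 156 for Ifit3, 120 for Rsad2, 78 for Isg15, 45 for Gbp3, 53 for Gbp7 and 34 for Igtp.
Ifit1 (chr19:34640760-34640819, plus strand): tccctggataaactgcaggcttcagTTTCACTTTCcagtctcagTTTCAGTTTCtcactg
Ifit3 (chr19:34583348-34583407, plus strand): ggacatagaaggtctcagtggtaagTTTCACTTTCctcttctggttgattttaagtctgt
Rsad2 (chr12:26456538-26456597, minus strand): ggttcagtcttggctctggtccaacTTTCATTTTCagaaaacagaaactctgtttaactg
Isg15 (chr4:156200862-156200921, minus strand): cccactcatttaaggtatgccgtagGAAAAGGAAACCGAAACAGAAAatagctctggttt
Gbp3 (chr3:142559974-142560025, plus strand): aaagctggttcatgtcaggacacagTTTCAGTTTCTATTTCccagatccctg
Gbp7 (chr3:142530258-142530317, plus strand): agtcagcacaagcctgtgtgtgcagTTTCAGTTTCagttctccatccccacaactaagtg
Igtp (chr11:58199497-58199555, plus strand): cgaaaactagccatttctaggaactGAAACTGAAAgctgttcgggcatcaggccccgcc
These are matches of letters, and binding was not measured in these samples.

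Among the transcription factors, Irf1, a fast-induced activator of interferon and GTPase genes, was the highest per length, at 15.4 CPM per kb of exon, and the most even. Irf1 measured 62.7, 60.3, 62.9 and 58.9 CPM in tumours 1, 2, 3 and 4 (mean 61.2 ± 1.96 CPM, SD, n = 4). Its SD of log2 CPM was 0.05, the lowest of the members and at place 14111 of 14225 from the most to the least variable gene, and it did not pass the spread test (adjusted p = 0.683, chi-square over all genes). Irf9, the DNA-binding part of the interferon-activated complex, measured 37.9, 43.3, 33.7 and 43.6 CPM and was lowest in tumour 3 (adjusted p = 0.00387). Stat2, its partner, measured 25.9, 31.5, 41.1 and 26.0 CPM: tumour 3 was high, and tumours 1 and 4 were nearly equal at the low end. This 1.59-fold range passed the test (adjusted p = 1.63e-08). Irf7, the regulator that amplifies interferon-alpha production, was lower, at 1.01 CPM per kb against 5.25 for Stat2 and 7.36 for Irf9. Its values were 3.63, 3.60, 2.59 and 5.47 CPM, lowest in tumour 3 and highest in tumour 4 (adjusted p = 0.0333). Exons of Irf9 and Irf7 overlap those of Rnf31 and Phrf1, by 123 and 45 bases.

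Per length, the RNA sensors Ddx58 and Ifih1 (5.68 and 5.77 CPM per kb) lay above Dhx58 and Zbp1 (1.14 and 0.756). Ddx58, which encodes RIG-I, measured 29.7, 43.1, 45.0 and 42.5 CPM and Ifih1, which encodes MDA5, 47.8, 50.9, 40.0 and 49.95 CPM. Tumour 1 stood apart for Ddx58, below the others, which lay close together, whereas for Ifih1 tumour 3 was the lowest. Both passed the spread test (adjusted p = 8.99e-07 and 0.00754). A tumour stood apart in this way, by Dixon's ratio at the 5% level, for 6 of 38 members, where 5.86% of all genes had such a tumour. Dhx58, encoding the regulatory helicase LGP2, measured 3.19, 4.65, 2.84 and 4.28 CPM (adjusted p = 0.196). Zbp1, the Z-nucleic acid sensor that can start necroptosis, measured 2.42, 3.14, 3.46 and 1.67 CPM (adjusted p = 0.135), and neither passed the test. An antisense gene overlaps exons of Dhx58, as is the case for Usp18 and Ifi35.

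The 3 IFIT genes, whose products bind foreign RNA and stall its translation, lie in one cluster on chromosome 19, between positions 34550694 and 34650009 (GRCm38). Ifit2 measured 6.93, 10.6, 17.9 and 15.6 CPM in tumours 1 to 4, a 2.58-fold range with tumour 1 the lowest and tumour 3 the highest (adjusted p = 2.45e-10). Ifit3 followed with 5.50, 5.92, 8.51 and 10.2 CPM, again lowest in tumour 1 (adjusted p = 0.00108). Its reads may be split with the near-identical copy Ifit3b. Ifit1 differed from both in its order, since at 5.28, 4.41, 5.06 and 7.61 CPM it was lowest in tumour 2 and highest in tumour 4 (adjusted p = 0.0415).

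The OAS family includes the enzymes that make the oligoadenylates that activate RNase L, and it lay between 0.105 (Oas3) and 1.25 CPM per kb (Oasl2). Oas1a measured 0.990, 3.25, 1.73 and 2.97 CPM, with tumour 1 low and tumour 2 high (adjusted p = 0.00595); it has the near-identical copy Oas1g. Oas2 measured 1.21, 1.63, 1.85 and 2.74 CPM and Oas3 0.110, 0.929, 0.987 and 0.951 CPM. Oas3 had 1 count in tumour 1, below the limit of 3 counts, and 8 in each of the others, and it was not tested. Oas2 did not pass (adjusted p = 0.143), although tumour 1 was again the lowest. Of the OASL genes, Oasl2 measured 6.49, 9.29, 6.54 and 9.63 CPM, with tumours 1 and 3 below tumours 2 and 4 (adjusted p = 0.0333). Oasl1, an inhibitor of Irf7 translation, measured 0.660, 1.39, 0.617 and 1.78 CPM with the same pair of tumours at the low end (adjusted p = 0.0731). Oas1a, Oas2 and Oas3 lie together on chromosome 5 between 120730333 and 120907521, and Oasl1 and Oasl2 between 114896936 and 114937915 (GRCm38).

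Mx1 had the widest spread of the 38 members tested. This dynamin-like GTPase blocks influenza virus, although C57BL/6 mice are known to carry a defective copy, and it measured 4.40, 16.4, 23.4 and 12.7 CPM, with tumour 1 the lowest and tumour 3 the highest. The 5.33-fold range had an SD of log2 CPM of 1.03, at place 816 of 14225, and passed the test (adjusted p = 3.34e-24). Its neighbour on chromosome 16, Mx2, annotated as a polymorphic pseudogene, measured 0.990, 0.697, 1.73 and 0.951 CPM and did not pass (adjusted p = 0.241). Samhd1, which depletes the nucleotides that viral reverse transcription needs, had the highest CPM of the members, at 113, 105, 138 and 128 CPM, with tumour 3 the highest (adjusted p = 1.80e-09). It alone made up 11.4 to 15.5% of the members' summed CPM.

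The other antiviral effectors differed by less than 2-fold between tumours. Ifitm3, a membrane protein that blocks viral fusion, measured 24.0, 21.7, 30.2 and 24.1 CPM and was highest in tumour 3 (adjusted p = 0.00626). Bst2, the tetherin that holds budding virus at the membrane, measured 13.3, 17.4, 17.4 and 18.2 CPM; tumour 1 stood apart at the low end, while the spread did not pass (adjusted p = 0.0619). Rsad2, the radical-SAM enzyme viperin, and Cmpk2, a mitochondrial nucleotide kinase, are neighbours on chromosome 12 on opposite strands, within 26442746 to 26479837. Rsad2 measured 2.64, 2.32, 2.96 and 2.97 CPM and did not pass (adjusted p = 0.841). Cmpk2 measured 7.48, 6.16, 3.83 and 6.90 CPM, with tumour 3 low (adjusted p = 0.0203).

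The ubiquitin-like modifier Isg15 and its protease Usp18, both widely used as markers of an interferon response, were at 3.70 and 1.28 CPM per kb and did not pass the test. Isg15 measured 2.75, 3.37, 2.22 and 2.85 CPM (adjusted p = 0.606) and Usp18 3.30, 3.95, 2.84 and 4.16 CPM (adjusted p = 0.494), both lowest in tumour 3. Trim25, an E3 ligase of the RIG-I and ISG15 systems, was higher per length, at 15.5 CPM per kb, and measured 91.4, 88.6, 65.4 and 110.5 CPM. Tumour 3 was again the lowest and tumour 4 the highest (adjusted p = 1.16e-19).

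Parp14, Dtx3l and Parp9, enzymes of ADP-ribosylation and ubiquitination, lie together on chromosome 16 between 35832874 and 35972605 (GRCm38) and were all lowest in tumour 1. Parp9 measured 33.8, 49.0, 48.4 and 48.3 CPM, so that tumours 2, 3 and 4 were nearly equal and tumour 1 stood apart. Its partner Dtx3l measured 29.0, 43.0, 36.5 and 40.7 CPM and Parp14 22.4, 43.7, 47.4 and 45.0 CPM, the latter also with tumour 1 apart and a 2.11-fold range. All 3 passed (adjusted p = 8.60e-07, 1.36e-05 and 9.26e-19). Dtx3l and Parp9 run on opposite strands and their exons share 458 bases, and the strand setting of the counting is not given in the sources used here, so reads from that stretch cannot be assigned to one of them with certainty. Without tumour 1, none of the 3 passed in the chi-square test.

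The 6 GTPase members took opposite orders in tumour 1. The guanylate-binding proteins Gbp2, Gbp3 and Gbp7, which coat vacuoles of intracellular microbes and are encoded in one cluster on chromosome 3 between 142530342 and 142638008 (GRCm38), were all highest in tumour 1. Gbp2 measured 48.5, 29.7, 18.8 and 18.8 CPM, a 2.59-fold range in which tumours 3 and 4 were nearly equal at the low end (adjusted p = 5.40e-37, the smallest of the members). Gbp3 measured 15.2, 8.71, 9.01 and 8.21 CPM, so that tumour 1 stood apart above 3 tumours that lay close together (adjusted p = 8.51e-06). Gbp7 measured 21.1, 15.2, 16.4 and 11.5 CPM (adjusted p = 2.49e-05). Their summed level was 84.8, 53.7, 44.2 and 38.5 CPM in tumours 1 to 4. Gbp7 shares 637 exonic bases with the predicted gene Gm43802 on its own strand.

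The immunity-related GTPases Igtp, Iigp1 and Irgm1, which act on the same vacuoles, showed the opposite order for tumour 1, and were all lowest there. Igtp measured 9.24, 15.4, 9.87 and 17.1 CPM and Irgm1 28.6, 42.4, 32.8 and 44.5 CPM, both with tumours 1 and 3 below tumours 2 and 4. Iigp1 measured 8.14, 26.4, 16.3 and 22.4 CPM, a 3.24-fold range; it has the near-identical copy Gm4951, and Igtp shares 162 exonic bases with Irgm2. All 3 passed (adjusted p = 1.79e-06, 2.12e-08 and 4.35e-19), and their summed level was 46.0, 84.2, 59.0 and 84.0 CPM. Igtp and Irgm1, like Gbp2, Gbp3 and Gbp7, held the response element in their promoter windows, and Iigp1 had no window. The part of these elements in the order of the tumours was not tested. With DESeq2 size factors and with plain library size, compared after seeing the data, tumour 1 was again the highest for the 3 guanylate-binding members and the lowest for the 3 immunity-related ones. Within the guanylate-binding family the order was not uniform either: the 5 further genes Gbp4, Gbp5, Gbp6, Gbp8 and Gbp9, grouped after their values were seen, were all lowest in tumour 1, with a summed 26.3, 38.8, 42.8 and 35.1 CPM, and 3 of the 5 passed the spread test. Of the 4 further immunity-related GTPases Ifi47, Irgm2, Tgtp1 and Tgtp2, grouped in the same way, 4 were lowest in tumour 1 and 2 passed. Their summed levels were 29.3, 57.4, 43.6 and 50.4 CPM. Tgtp1 and Tgtp2 are near-identical copies of each other, and Irgm2 holds stretches that many genes share. Gbp6 shares exons on its own strand with Gbp10 and with another entry named Gbp6. Reads of such genes may be split or shared, so the further genes are not all independent. Of all genes tested, 76.7% passed the spread test and 30.4% were lowest in tumour 1. Neither group of further genes therefore passed the spread test more often than genes at large. In tumour 1 the summed epithelial and fibroblast markers were highest (3972 and 490 CPM, against at most 2632 and 359 CPM elsewhere). Of the 4 genes of each list, 3 were highest there and 1 was lowest. The summed alveolar type 2 markers were lowest in tumour 1, and the part of these marker lists in the GTPase values was not tested.

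**Figure D4:**
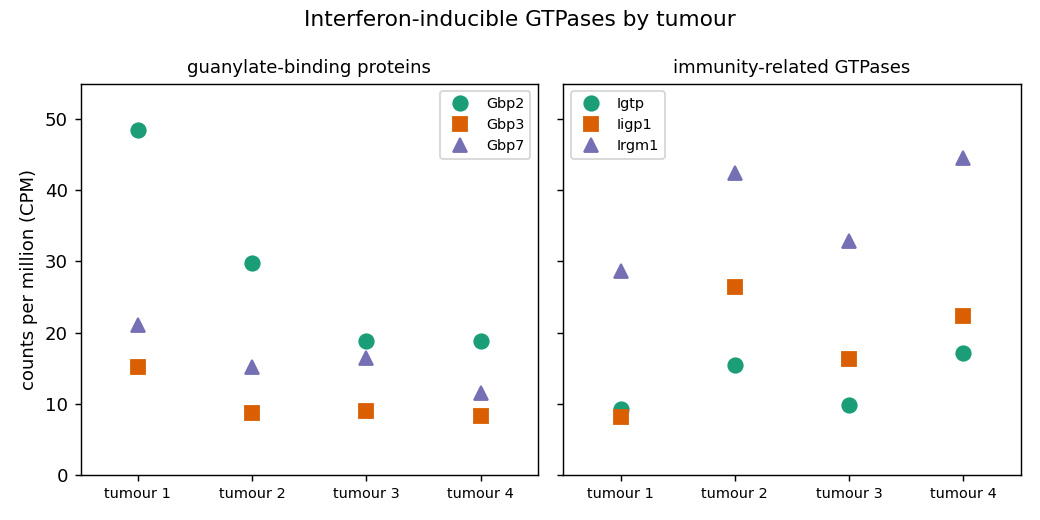
Level of the 6 GTPase genes in CPM by tumour, the 3 guanylate-binding proteins on the left and the 3 immunity-related GTPases on the right, 1 point per tumour on axes that start at 0. Gbp2, Gbp3 and Gbp7 are highest in tumour 1 (48.5, 15.2 and 21.1 CPM), where Igtp, Iigp1 and Irgm1 are lowest (9.24, 8.14 and 28.6 CPM).

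Of the remaining induced genes, Ifi27, a small mitochondrial and nuclear-envelope protein, measured 62.4, 59.9, 47.4 and 60.9 CPM, with tumour 3 apart at the low end (adjusted p = 2.36e-04). Xaf1, a pro-apoptotic antagonist of XIAP, measured 13.3, 16.3, 19.0 and 21.4 CPM and was lowest in tumour 1 (adjusted p = 6.48e-04); its exons hold repeats that many genes share. Ifi44 measured 3.08, 5.11, 5.80 and 3.57 CPM, with tumour 1 the lowest (adjusted p = 0.0303). Ifi35 measured 16.9, 22.2, 17.4 and 18.3 CPM and did not pass (adjusted p = 0.062).

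Levels were compared between genes after division by the merged length of a gene's annotated exons. This length depends on which transcripts are annotated: for Irf7 the exons merge into 1 stretch of 3776 bases, the whole gene. Values per kb can therefore be too low by an amount that differs between genes. On this scale Ifi27 (39.3 ± 4.72 CPM per kb, mean ± SD, n = 4) and Ifitm3 (36.9 ± 5.38) had the highest means. Bst2 (18.4 ± 2.45), Trim25 (15.5 ± 3.21), Irf1 (15.4 ± 0.494) and Samhd1 (13.2 ± 1.62) followed, each with n = 4. Among these genes the bands of mean ± SD overlapped for Ifi27 and Ifitm3, and for Trim25 with Bst2, with Irf1 and with Samhd1. Those of Irf1 and Samhd1 just failed to meet. Overlap of bands is not a test, and differences within each tumour were not taken for these genes. The lowest were Oasl1 (0.427 ± 0.219), Oas2 (0.417 ± 0.145), Mx2 (0.302 ± 0.123) and Oas3 (0.105 ± 0.0599 CPM per kb), of which only Mx2 and Oas3 did not overlap as neighbours in this order. In 8 pairs of related genes the difference in log2 CPM per kb kept one sign in 4 of 4 tumours for 7 pairs. Mx1 exceeded Mx2 by 3.41 ± 0.99, Gbp2 exceeded Gbp7 by 1.92 ± 0.43 and Parp9 exceeded Parp14 by 1.16 ± 0.25 (mean ± SD of the log2 difference). Oas2 was above Oas3 in 4 of 4 tumours, by 1.70 without tumour 1, where Oas3 had 1 count. Irf7 minus Irf9 was -2.88 ± 0.30, Oasl1 minus Oasl2 -1.60 ± 0.42 and Ifit1 minus Ifit3 -1.02 ± 0.28. For Ddx58 minus Ifih1 it was -0.03 ± 0.35, with Ddx58 higher in 1 of 4 tumours. With 4 tumours, a two-sided exact permutation test that flips signs cannot go below p = 0.125, which these 7 pairs reached (0.143 after adjustment over the 8 pairs), and Ddx58 minus Ifih1 gave p = 0.625 in the same exact test.

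The upstream part of the pathway was measured from the same libraries, with 88 further genes in fixed lists. Interferons themselves were at the limit of detection: 21 of 21 ligand genes had at most 3 counts in every tumour, and together they had 2, 2, 0 and 2 counts in tumours 1 to 4. Ifnb1, Ifnl2 and Ifnl3 had 0 counts in all 4, which allows up to 0.370 CPM, and Ifng had 1 count in tumours 1 and 2. Depth therefore sets an upper limit here and does not show absence of transcription. By contrast the receptors and kinases had means above 10 CPM, and 9 of 9 passed the spread test, where 85.3% of all genes at such levels did. The type I receptor chain Ifnar1 measured 68.0, 81.0, 69.6 and 87.3 CPM and Ifnar2 17.6, 30.6, 26.3 and 22.4 CPM. Of the interferon-gamma receptor chains, Ifngr1 measured 73.3, 72.4, 86.9 and 75.0 CPM and Ifngr2 74.5, 74.1, 88.4 and 75.8 CPM, both with tumour 3 the highest. For the type III receptor, Ifnlr1 measured 31.9, 28.3, 43.4 and 40.1 CPM and its partner Il10rb 52.5, 96.1, 73.8 and 79.6 CPM, the latter lowest in tumour 1. The kinases averaged 152 ± 28.9 CPM (Jak1), 105 ± 17.8 CPM (Jak2) and 32.7 ± 4.21 CPM (Tyk2; SD, n = 4).

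Of the other transcription factors of the pathway, Stat3, Irf2, Irf3, Irf5 and Irf8 passed the spread test, where 76.7% of all genes did. Stat3 averaged 154 ± 19.4 CPM, Irf2 49.6 ± 7.43 CPM and Irf3 52.3 ± 4.40 CPM. The mostly haematopoietic factors Irf5 and Irf8 measured 6.05, 8.36, 10.2 and 5.71 CPM and 6.82, 10.1, 12.2 and 9.75 CPM, with tumour 3 the highest for both, which was also highest for the pan-leukocyte markers (252 CPM); the part of those cells was not tested.

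Of 12 sensors and adaptors, 11 were tested and 10 passed, against 76.7% of all genes. The highest in mean CPM were Eif2ak2, encoding the RNA-activated kinase PKR, at 69.1 ± 9.98 CPM, the kinase Tbk1 at 60.4 ± 11.8 CPM and the RIG-I adaptor Mavs at 48.5 ± 2.43 CPM, which did not pass (adjusted p = 0.414). The most variable were Tlr7, an endosomal RNA receptor, at 2.64, 3.83, 8.51 and 3.45 CPM, Mb21d1, encoding the DNA sensor cGAS, at 1.76, 4.99, 4.20 and 2.50 CPM, and the kinase Ikbke at 5.61, 15.3, 6.17 and 10.2 CPM. Tlr7 was highest in tumour 3, and both Mb21d1 and Ikbke were highest in tumour 2 and lowest in tumour 1. Of 6 inhibitors 4 were tested and 4 passed, namely Ptpn6 (54.5 ± 7.66 CPM), Pias1 (49.3 ± 6.34 CPM, with tumour 1 apart at 39.8, 51.6, 53.6 and 52.1 CPM), Socs3 (40.4 ± 8.51 CPM) and Nlrc3 (1.96 ± 1.00 CPM). Trex1 was listed at 0 in every tumour, and all of its 1147 exonic bases overlap Atrip.

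Of 34 further induced genes 31 were tested and 19 (61.3%) passed, below the 76.7% of all genes, and 22 (71.0%) were lowest in tumour 1, where 30.4% of all genes were. The highest in CPM were the GPI-anchored Ly6e, at 679.7, 887, 774 and 637 CPM, the giant E3 ligase Rnf213, at 99.6, 141, 110.3 and 118 CPM, and Ifitm2, at 60.4, 84.4, 31.3 and 54.0 CPM. Ifitm2 was lowest in tumour 3, unlike the member Ifitm3. The largest spread was that of Oas1b, at 0.660, 2.56, 2.59 and 4.40 CPM, and Oas1c, at 1.32, 4.18, 6.54 and 6.54 CPM, both lowest in tumour 1 as Oas1a and Oas2 were, and of Ifitm1, at 1.65, 1.05, 4.32 and 2.26 CPM, lowest in tumour 2.

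**Figure D5:**
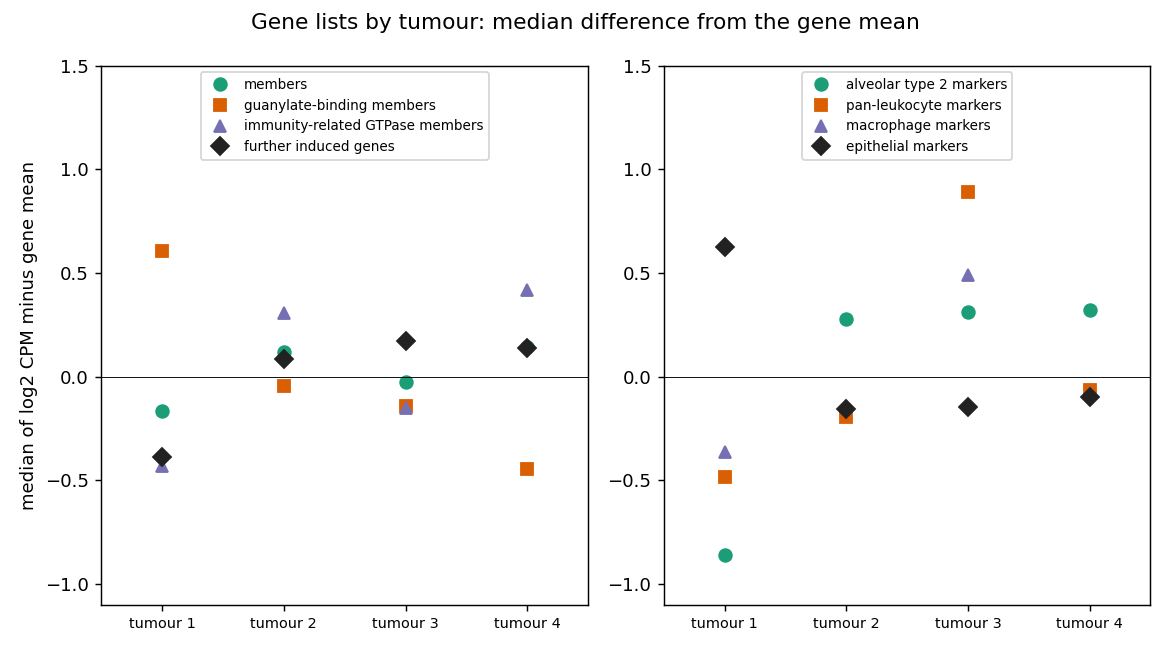
Median over each gene list of log2 CPM minus the gene mean, by tumour, 1 point per list; left, the 38 members tested, both GTPase families and 31 further induced genes, right, marker lists. The guanylate-binding members stand at 0.61 in tumour 1, where the other 3 lists on the left are negative, and the alveolar type 2 markers stand at -0.86 there.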

How the data were processed

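Poly(A) RNA of 4 macrodissected lung tumours was sequenced as single-end reads from stranded libraries made with 500 ng of RNA. Per the labels and the study's methods, reads were demultiplexed (bcl2fastq 2.17), trimmed (cutadapt 1.4.2 in the submitters' processing notes), aligned to mm10 with HISAT2 and counted per gene with featureCounts 1.4.4; the strand setting is not given in the sources used here. The authors deposited raw counts per tumour, the same counts in 1 combined table (156068 of 156068 values equal) and a table of log2 values normalised with edgeR, used here only as an alternative.

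Counts were scaled by the trimmed mean of M values (edgeR 4.0.16) to counts per 1000000 (CPM). Log2 values added 0.5 to each count. The 4 counts of each gene with a mean of at least 1 CPM (14225 genes) were compared with Poisson expectations by chi-square (3 degrees of freedom, Benjamini-Hochberg adjustment over these genes, threshold 0.05); a tumour was called apart by Dixon's ratio. Total counts ranged from 8151613 to 8799007 per tumour, and 3 counts were taken as the limit of detection. Positions, merged exon lengths and overlaps are from GENCODE M21 (GRCm38); genes whose transcripts share at least 80 bases at 97% identity (BLAST 2.17.0) were called copies. Promoter windows are from RefSeq (GRCm38.p6). The scripts were tested on simulated data. Alternatives were DESeq2 1.42.0 size factors, plain library size, other filters, 2 added to each count, the deposited log2 table, an added edgeR trended dispersion, no division by length and leaving out each tumour.

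The members, the other lists and the tests were chosen with earlier results of these data known. All members were named; of the sensor, inhibitor and further-gene lists, the 3 with the highest mean and the 3 with the largest SD of log2 CPM; of the ligands, receptors, kinases and transcription factors, all but 1 that is not reported here. The guanylate-binding and immunity-related GTPases outside the members were grouped, and the count of members lowest in tumour 1 was first put under other settings, after their values were seen.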

Additional observations from a re-analysis of the deposited data

Results flagged for a closer look

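Of 79 results tested, 11 had 1 tumour standing apart by Dixon's ratio, where the 5% level gives 3.95 for independent results with normal noise. These results come from the same 4 tumours and are not independent, so the comparison cannot show an excess. For Ddx58, tumour 1 was low at 29.7 CPM. For Oas3 it was low at 0.110 CPM, which is 1 count, for Bst2 at 13.3 CPM, for Parp9 at 33.8 CPM and for Parp14 at 22.4 CPM. The sumoylation enzyme gene Pias1, an inhibitor of interferon signalling, was low in tumour 1 too, at 39.8 CPM. Gbp3 was high there, at 15.2 CPM, and the alveolar type 2 markers were low, with a mean log2 CPM of 11.23. In tumour 3, Ifi27 was low at 47.4 CPM, the receptor chain Ifngr2 was high at 88.4 CPM, and the T cell markers were high with a mean log2 CPM of 2.09. Of the 39 members, 7 had such a tumour, 1 of them Oas3 below the limit of detection; over all genes tested the share was 5.86%.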

How the results depend on the processing

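Of the 27 members whose spread passed the chi-square test, 10 also passed without each tumour in turn (Gbp2, Gbp7, Ifit2, Ifit3, Igtp, Iigp1, Irgm1, Mx1, Samhd1 and Trim25). The count ranged from 18 (without tumour 1, which ended the call for Ddx58, Dtx3l, Gbp3, Ifi44, Oas1a, Oasl2, Parp14, Parp9 and Xaf1) to 28, and was 19 without tumour 3, which ended it for Cmpk2, Ifi27, Ifi44, Ifih1, Ifitm3, Irf7, Irf9, Oasl2 and Stat2. With 3 tumours the share of all genes passing was lower as well (62.3% and 62.4%). Ifit1 was also lost without tumours 2 and 4 and with no filter on low counts (26 of 39 called), Irf7 and Oasl2 without tumour 4 and Oasl2 with plain library size (26 of 38), whereas Bst2 passed without tumours 2 and 3, Oasl1 without tumour 2 and Ifi35 without tumour 4. With plain library size, 5 members had 1 tumour apart, with Bst2 and Ifi27 lost and Ifih1 gained, and with no filter 7 had. With edgeR's trended dispersion added the count was 0 (1 at an unadjusted p below 0.05). The difference between Ddx58 and Ifih1 ranged from -0.17 to 0.11 on the log2 scale when 1 tumour was left out, the latter without tumour 1, and the cause was not tested. The median member difference in tumour 3, near 0, ranged from -0.12 to 0.04. Without division by length, Gbp2 minus Gbp7 was 0.76, Parp9 minus Parp14 0.22, Ifit1 minus Ifit3 -0.41, Oasl1 minus Oasl2 -2.89 and Oas2 minus Oas3 1.51 (2.18 with it) on the log2 scale. The count of members lowest in tumour 1, put under other settings after seeing the data, was 15 of 38 with plain library size (25.5% of all genes) and 13 of 23 among genes of at least 10 CPM (30.7%). No paired analysis was possible because the samples form 1 group. Genes of few counts, such as Oas3 and the interferons, are limited by depth.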
